A study of Mus musculus with 30 samples.

Results

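Lin28a, Lin28b, Hmga2, Igf2bp1, Igf2bp2, Igf2bp3 and Trim71 are genes of the Lin28 and let-7 heterochronic pathway, and were chosen by name. All 7 were found among the 54134 rows of the count table, and all 7 were among the 12149 genes with enough counts to be tested. RNA was measured in 30 libraries from mouse Bruce4 embryonic stem cells (ESCs) differentiated towards neuromesodermal progenitors (NMPs), the dual-fated cells that feed spinal cord and paraxial mesoderm. Cells were either wildtype or Nr6a1-/-, the latter being 1 clone with both alleles of the orphan nuclear receptor gene Nr6a1 disrupted by CRISPR in exon 4, and 3 replicates were made of each genotype at each of 5 stages. As all Nr6a1-/- libraries came from this clone, loss of Nr6a1 and other traits of the clone cannot be told apart. At d2 the cells had received FGF2 for 48 hours. The Wnt agonist CHIR was then added for 12 hours (d2.5) or 24 hours (d3), and d3 cells were kept for 24 hours more without (d4) or with (d4G) Gdf11, a TGF-beta family ligand that times the trunk-to-tail transition. The labels do not say that replicates were separate cultures, so the p-values measure the spread between these libraries, which may be technical.

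Lin28a and Lin28b are RNA-binding proteins that bind let-7 microRNA (miRNA) precursors and block their maturation, while mature let-7 represses mRNAs that carry matches to its seed, among them those of Lin28, Hmga2, the Igf2bp genes and Trim71. The pathway is called heterochronic because its members were first found to time developmental steps in the nematode, and Lin28 is known to sustain the axial progenitors of the mouse tail bud. The 3′ untranslated region (UTR) of Nr6a1 itself is a known let-7 target.

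The let-7 miRNAs are shown first, since their seed is what the members have in common at the level of sequence. In RefSeq (GRCm38.p6), 11 mature mouse miRNAs had the same seed, bases 2 to 8, which is in capitals below, and 4 of these sequences show how the rest of the miRNA varies around it.
let-7a-5p: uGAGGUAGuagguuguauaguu
let-7b-5p: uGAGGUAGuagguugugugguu
let-7g-5p: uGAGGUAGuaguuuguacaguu
miR-98-5p: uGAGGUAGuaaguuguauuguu
The libraries were primed on poly(A) tails and did not measure mature miRNAs. Of 13 rows for the hairpin genes of this family in the count table, 1 held any count. The letters GGAG, the core of the Lin28 binding element, were present in 10 of these 13 hairpins and in 44.5% of 1005 mouse hairpins. The whole hairpin was searched, and the mature let-7e and let-7k themselves hold these letters, so this is not a count of binding elements.

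Each member's longest annotated 3′ UTR (GENCODE M21, GRCm38) held at least 1 match to the let-7 seed, CTACCTC, against 9.02% of 21020 genes with an annotated 3′ UTR. Long UTRs hold more matches by length alone. Among UTRs within 20% of the member's length, a match was present in 14.4% for Lin28a (2 matches in 2775 bases), 24.2% for Lin28b (4 in 4445 bases), 15.5% for Hmga2 (4 in 3014 bases) and 33.7% for Igf2bp1 (4 in 6337 bases). The corresponding shares were 12.1% for Igf2bp2 (1 match in 1784 bases), 13.3% for Igf2bp3 (1 in 2119 bases) and 29.5% for Trim71 (4 in 5512 bases). At least as many matches as in the member itself were present in 0.134% of UTRs of like length for Hmga2, 0.236% for Lin28b, 0.355% for Igf2bp1, 0.504% for Trim71 and 2.10% for Lin28a. The Nr6a1 UTR held 8 matches in 4457 bases. These matches are descriptions of sequence and not measured sites. As the members were chosen as genes of the let-7 pathway, the shares describe that choice and are no test of enrichment.

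One match per gene is shown with its upstream bases, chosen as the first match in the UTR that is followed by A, the base opposite miRNA position 1. Capitals mark the match and that A, and coordinates are on GRCm38, minus strand.
Lin28a, chr4:134005189-134005218: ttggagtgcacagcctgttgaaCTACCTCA
Lin28b, chr10:45381022-45381051: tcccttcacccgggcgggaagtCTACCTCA
Hmga2, chr10:120364224-120364253: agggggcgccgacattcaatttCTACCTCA
Igf2bp1, chr11:95961778-95961807: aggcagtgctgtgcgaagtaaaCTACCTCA
Igf2bp2, chr16:22059473-22059502: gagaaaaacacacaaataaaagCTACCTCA
Igf2bp3, chr6:49086787-49086816: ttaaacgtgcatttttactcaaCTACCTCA
Trim71, chr9:114512472-114512501: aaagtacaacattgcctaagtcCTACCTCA
Nr6a1, chr2:38727449-38727478: tccataatgttgacaaagacaaCTACCTCA
The match lay 36 bases after the stop codon in Lin28b, 58 bases in Hmga2 and 166 bases in Trim71, and at 548 to 1715 bases in the other 4 members.

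**Figure D1:**
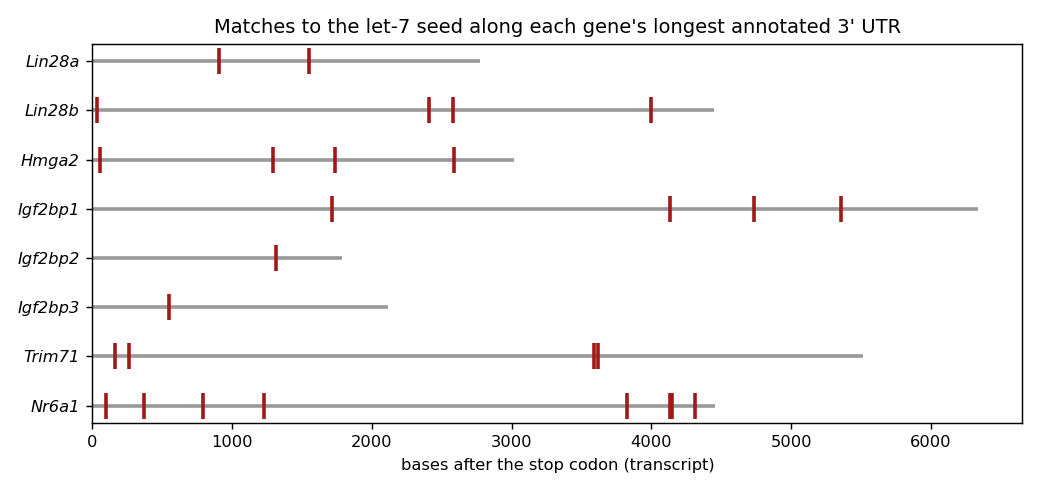
Positions of matches to the let-7 seed along the longest annotated 3′ UTR of each of the 7 genes and of Nr6a1. The x axis gives bases after the stop codon, grey lines span the UTR and red ticks mark matches, from 1 in Igf2bp2 and Igf2bp3 to 8 in Nr6a1.

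All 7 genes lie on the minus strand of GRCm38, at chr4:134003330-134018841 for Lin28a, chr10:45376620-45486395 for Lin28b, chr10:120361275-120476469 for Hmga2, chr11:95957163-96005940 for Igf2bp1, chr16:22059009-22163299 for Igf2bp2, chr6:49085223-49214957 for Igf2bp3 and chr9:114507133-114564369 for Trim71. Malsu1, on the opposite strand, covers the last 1000 bases of the Igf2bp3 transcript and had 9395 counts in all, so reads of these genes cannot be told apart unless strand was used in counting, which is not given in the sources used here. No other member matched another gene's transcript at 95% identity over 100 bases or more in its last 1000 bases. The extended half-site of Nr6a1, TCAAGGTCA, was searched on both strands in RefSeq promoters (GRCm38.p6, from 250 bases before to 50 bases after the start), where 0.423% of 32851 promoters held it. None of the promoters of the 6 members in that table held these letters in this window.

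Library totals ranged from 1570714 to 3688197 counts with a median of 2366002. The Nr6a1 row gave 18.6 to 311.6 CPM (counts scaled to a common library total) in the Nr6a1-/- libraries and 17.1 to 184.9 CPM in wildtype, and since 3′ tags lie outside the deleted exon this does not check the genotype. T and Nkx1-2, markers of NMPs, had means of 4.51 and 4.92 CPM in wildtype d2 cells, and of 306.5 and 128.4 CPM a day later at d3, while Sox2, which NMPs share with pluripotent and neural cells, went from 125.1 to 77.9 CPM. Replicate 2 of wildtype d4 stood apart, with a summed level of 9 epiblast markers of 734.5 CPM against 97.7 CPM in the lowest library of that group, so called results of the members that use this group are also given without it, as are the list counts that it changed. The summed level of 8 endoderm markers was 12.3 to 72.0 CPM across wildtype libraries and 0.935 to 24.3 CPM across Nr6a1-/- libraries, with Cer1 at 0 in all 10 groups, and its part in the results was not tested. In bulk libraries, fewer cells of a type and less RNA per cell cannot be told apart. The wildtype d4 and d4G libraries carry the same 3 indexes per the labels. By the paper's methods, 1 index was added at priming, before samples were pooled, and a further index after pooling. If the labels give the first of these, the libraries came from different pools, and pool and Gdf11 cannot be told apart there. In Nr6a1-/- cells, 1 index is shared by d4 and d4G and 2 are shared by d3 and d4, so on the same condition these libraries came from different pools, and for them pool cannot be told apart from Gdf11 or stage.

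CPM values use library totals scaled by trimmed mean of M-values (TMM) and are not scaled by length, so they are compared within a gene and not between genes. A gene was called where the false discovery rate (FDR) of edgeR's quasi-likelihood test, adjusted over all 12149 genes, was below 0.05.

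**Figure D2:**
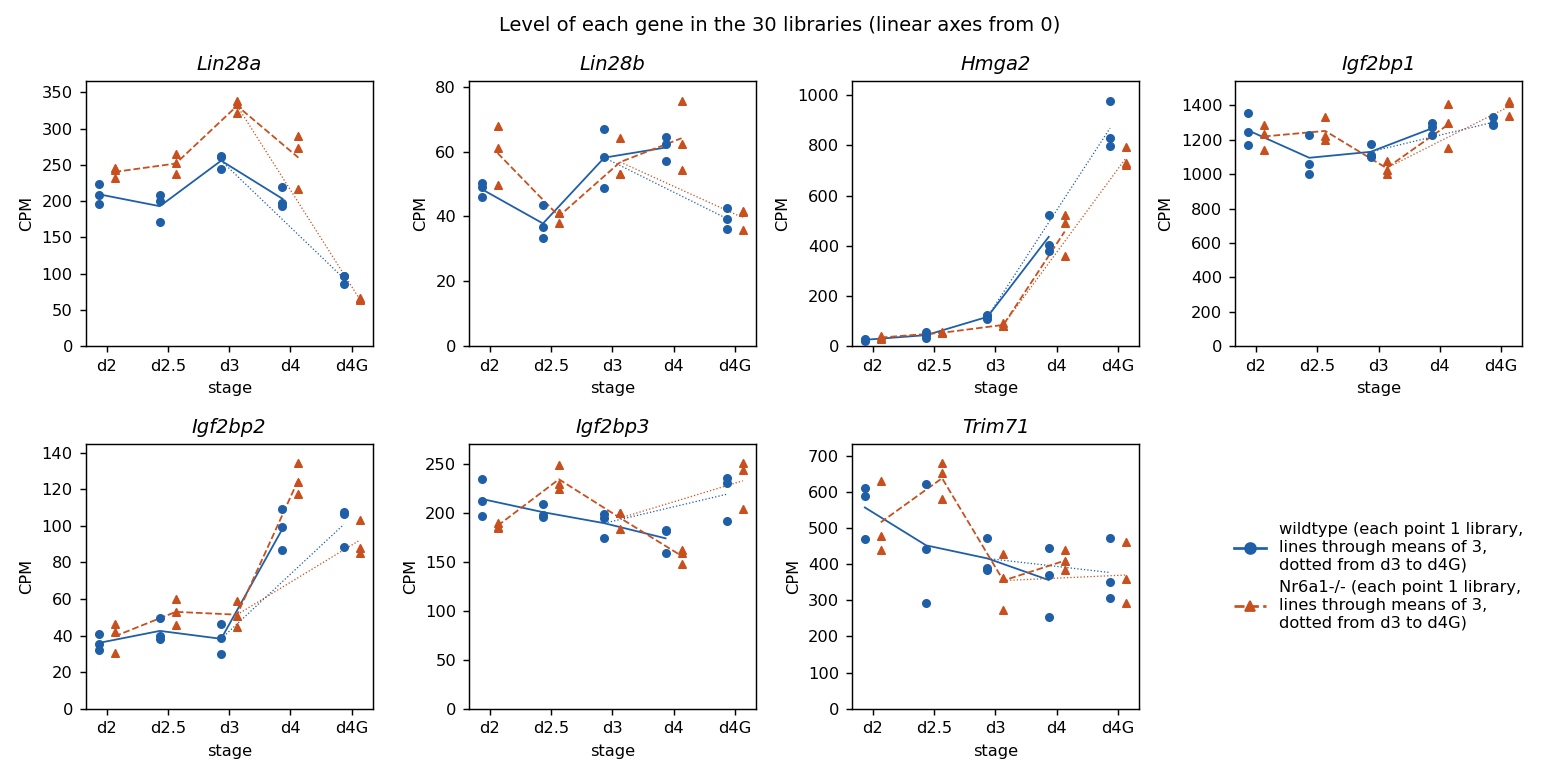
CPM of each gene (y axis, linear from 0) at each stage (x axis) in the 30 libraries. Circles are wildtype and triangles Nr6a1-/- libraries, lines join the means of 3 from d2 to d4, and dotted lines join d3 to d4G. Lin28a is highest at d3 and lowest at d4G, and Hmga2 rises from 22.1 to 978.1 CPM.

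Lin28a, the form of Lin28 known from ESCs and early embryos, peaked at d3 and was lowest with Gdf11 in both genotypes. In wildtype it was measured at 208.7, 224.1 and 195.7 CPM at d2, 208.1, 171.0 and 199.9 CPM at d2.5, and 261.2, 261.7 and 244.6 CPM at d3. Wildtype d4 libraries then stood at 193.9, 218.9 and 197.0 CPM and wildtype d4G libraries at 97.0, 86.3 and 97.1 CPM. The 3 libraries at d3 were above, and the 3 at d4G below, all other wildtype libraries, whereas d2, d4 and d2.5 overlapped with their neighbours in order of level. The highest wildtype stage mean was 2.74 times the lowest.

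In Nr6a1-/- cells Lin28a was measured at 242.5, 232.3 and 245.9 CPM at d2, 253.2, 264.8 and 237.6 CPM at d2.5, and 321.3, 334.5 and 338.6 CPM at d3. Its levels were 217.1, 273.5 and 289.3 CPM at d4 and 65.9, 65.1 and 63.0 CPM at d4G. All Nr6a1-/- libraries were thus above all wildtype libraries at d2, d2.5 and d3, the groups overlapped at d4 through 1 library of each, and at d4G the order was turned, with all 3 Nr6a1-/- libraries below wildtype. The highest Nr6a1-/- stage mean was 5.12 times the lowest.

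Lin28b, a paralogue that acts on the same precursors, showed no such separation between genotypes. Its wildtype levels were 46.0, 49.0 and 50.2 CPM at d2, 43.5, 33.3 and 36.7 CPM at d2.5, 67.1, 58.4 and 48.8 CPM at d3, 62.3, 57.0 and 64.4 CPM at d4, and 39.3, 42.7 and 36.0 CPM at d4G. In Nr6a1-/- cells they were 67.8, 49.8 and 61.0 CPM at d2, 41.1, 37.9 and 41.2 CPM at d2.5, 53.0, 53.1 and 64.2 CPM at d3, 54.2, 62.5 and 75.7 CPM at d4, and 35.8, 41.7 and 41.3 CPM at d4G. Both genotypes had low levels at d2.5 and at d4G, and the highest stage mean was 1.62 times the lowest in each.

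Trim71, an RNA-binding ubiquitin ligase that is itself a let-7 target, varied widely between replicates. At d2.5 it was measured at 440.8, 293.5 and 621.8 CPM in wildtype and at 678.9, 581.1 and 653.4 CPM in Nr6a1-/- libraries. At d3 the values were 385.3, 390.0 and 472.5 CPM in wildtype and 274.6, 362.5 and 426.8 CPM in Nr6a1-/- libraries. Of the Nr6a1-/- libraries at d2.5, 2 lay above all wildtype libraries and 1 within their range, while at d3 the ranges overlapped and the lowest library was Nr6a1-/-. At the other 3 stages all libraries lay between 254.9 and 629.6 CPM.

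Hmga2, a chromatin protein of proliferating embryonic cells and the member with the largest change over the stages, rose at every step. Wildtype libraries were at 25.6, 22.1 and 27.3 CPM at d2, 44.0, 31.8 and 55.3 CPM at d2.5, 120.8, 122.4 and 106.4 CPM at d3, 403.7, 380.1 and 522.4 CPM at d4, and 829.5, 798.9 and 978.1 CPM at d4G. Nr6a1-/- libraries were at 32.2, 29.0 and 41.0 CPM at d2, 52.2, 56.3 and 50.8 CPM at d2.5, 79.3, 80.2 and 93.8 CPM at d3, 357.8, 521.0 and 490.6 CPM at d4, and 795.4, 729.5 and 723.5 CPM at d4G. No 2 stages of the same genotype overlapped, and the highest stage mean was 34.7 times the lowest in wildtype and 22.0 times in Nr6a1-/- cells.

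The 3 Igf2bp genes encode RNA-binding proteins that bind Igf2 and other mRNAs, and they did not move together. Igf2bp1 was nearly level, with all 30 libraries between 1001.1 and 1427.4 CPM and a highest stage mean of 1.19 times the lowest in wildtype and 1.35 times in Nr6a1-/- cells. In wildtype, no neighbouring stages in the order of Igf2bp1, Igf2bp3 or Trim71 levels were separate. Igf2bp3 lay between 147.9 and 250.8 CPM in all libraries, and the highest stage mean was 1.26 and 1.50 times the lowest in wildtype and Nr6a1-/- cells. Igf2bp2 changed most, from 29.7 to 60.1 CPM in the 18 libraries up to d3 to 85.3 to 134.1 CPM in the 12 libraries at d4 and d4G, with no overlap between these ranges.

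The steps along differentiation were tested within each genotype. Between d2 and d2.5, over the first 12 hours of CHIR, 1 of 7 members was called in wildtype (25.4% of all genes) and 4 in Nr6a1-/- cells (24.1%). Between d2.5 and d3, 3 members were called in wildtype (11.5% of all genes) and 6 in Nr6a1-/- cells (15.9%). Between d3 and d4, 3 members were called in wildtype (21.1%) and 5 in Nr6a1-/- cells (25.9%). The median log2 fold change of the members at these 6 steps ranged from -0.11 to 0.31, beside a median of 0.0009 to 0.010 over all genes.

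**Figure D3:**
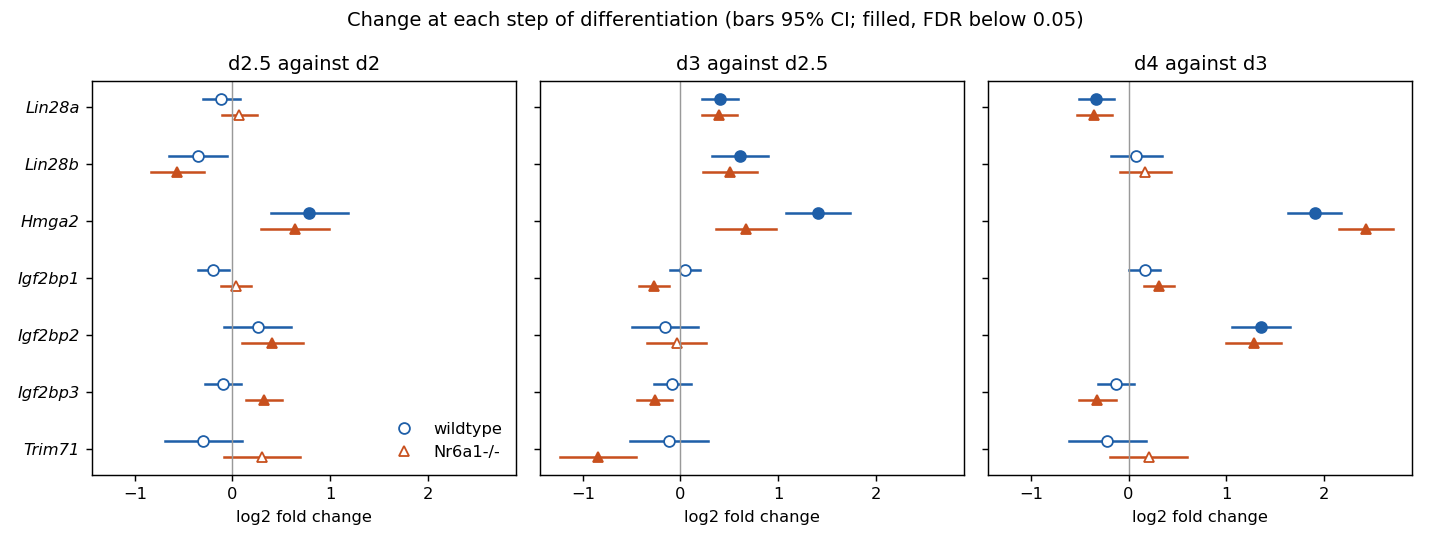
Log2 fold change of each gene at each step (x axis), with circles for wildtype, triangles for Nr6a1-/- cells and bars for 95% confidence intervals. Filled symbols have an FDR below 0.05. Hmga2 rose at all 3 steps in both genotypes and Igf2bp2 rose by 1.36 and 1.28 from d3 to d4.

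Hmga2 rose from d2 to d2.5 by a log2 fold change of 0.79 (SE 0.19, edgeR FDR 0.00241) in wildtype and 0.64 (SE 0.17, FDR 0.00544) in Nr6a1-/- cells. From d2.5 to d3 it rose by 1.41 (SE 0.16, edgeR FDR 4.53e-08) and 0.67 (SE 0.15, FDR 0.00174) respectively. From d3 to d4 it rose by 1.90 (SE 0.13, edgeR FDR 1.50e-13) and 2.43 (SE 0.14, FDR 1.90e-16). The rise was thus called at every step in both genotypes, although that of Nr6a1-/- cells from d2 to d2.5 was lost when counts were thinned to the smallest library (0.43, FDR 0.135) and without replicate 2 of Nr6a1-/- d2 (0.52, FDR 0.0538). Without replicate 2 of wildtype d4, the last wildtype step was 2.01.

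Lin28a and Lin28b both rose between d2.5 and d3. Lin28a rose by 0.41 (SE 0.09, edgeR FDR 0.00219) in wildtype and 0.40 (SE 0.09, FDR 0.00121) in Nr6a1-/- cells, and Lin28b by 0.61 (SE 0.14, FDR 0.00345) and 0.51 (SE 0.13, FDR 0.00727), the last of which was lost without replicate 3 of Nr6a1-/- d3 (0.41, FDR 0.0569). They parted from d3 to d4, where Lin28a fell by 0.33 on the log2 scale (SE 0.09, edgeR FDR 0.00663, and -0.37 without replicate 2 of wildtype d4) and 0.35 (SE 0.09, FDR 0.00270) while Lin28b stood at 0.08 (FDR 0.716) and 0.17 (FDR 0.363). Over the first 12 hours of CHIR, Lin28b fell in Nr6a1-/- cells by 0.56 (SE 0.13, edgeR FDR 0.00170), and was at -0.35 (SE 0.15, FDR 0.0708) in wildtype, where it was called without replicate 1 of d2.5 (-0.47, FDR 0.0410). Neither Lin28a step from d2 to d2.5 was called, at -0.11 and 0.07.

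Igf2bp2 rose from d3 to d4 by 1.36 (SE 0.15, edgeR FDR 7.31e-09, and 1.46 without replicate 2 of d4) in wildtype and 1.28 (SE 0.14, FDR 5.42e-09) in Nr6a1-/- cells, after smaller steps of -0.16 to 0.41 before. Of these earlier steps, only that of Nr6a1-/- cells from d2 to d2.5 was called (0.41, SE 0.15, edgeR FDR 0.0493), and it was lost under RLE scaling (0.38, FDR 0.0646), by DESeq2 (0.38, adjusted p 0.0820) and in 4 of the 6 fits without 1 of these libraries (0.24 to 0.44, namely replicates 1 and 3 of d2 and 1 and 2 of d2.5). Igf2bp1 was called in Nr6a1-/- cells, with a fall of 0.27 on the log2 scale from d2.5 to d3 (SE 0.08, edgeR FDR 0.0114) and a rise of 0.31 from d3 to d4 (SE 0.08, FDR 0.00215). The fall was lost without replicate 1 of d2.5 (-0.21, FDR 0.118) or replicates 2 or 3 of d3 (-0.25 and -0.24), and the rise when only the libraries compared were fitted (0.29, FDR 0.13). The same steps in wildtype were 0.04 (FDR 0.779) and 0.16 (FDR 0.129), and the latter was called when only the libraries compared were fitted (0.15, FDR 0.0267). The wildtype step of Igf2bp1 from d2 to d2.5 was -0.20 (SE 0.08, edgeR FDR 0.0583), and it was called with RLE factors (-0.21, FDR 0.0415), by DESeq2 (-0.21, adjusted p 0.0396) and without replicate 1 of d2 (-0.25, FDR 0.0357) or replicate 3 of d2.5 (-0.29, FDR 0.0111).

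Igf2bp3 and Trim71 were likewise called in Nr6a1-/- cells. Igf2bp3 rose by 0.33 from d2 to d2.5 (SE 0.09, edgeR FDR 0.00651), fell by 0.27 to d3 (SE 0.09, FDR 0.0373) and fell by 0.32 to d4 (SE 0.09, FDR 0.00888), and when counts were thinned the first of these (0.22, FDR 0.119) and the second (-0.12, FDR 0.499) were lost. The second was also lost without any 1 of the 6 libraries (-0.29 to -0.21), and the first without replicate 1 of d2.5 (0.26, FDR 0.0645). Trim71 fell by 0.85 on the log2 scale from d2.5 to d3 (SE 0.19, edgeR FDR 0.00178). Its step from d2 to d2.5 was -0.30 in wildtype (SE 0.19, edgeR FDR 0.269), which was called with no filter (-0.30, FDR 0.0158) and without replicate 3 of d2.5 (-0.60, FDR 0.0244). The same step was 0.31 in Nr6a1-/- cells (SE 0.19, edgeR FDR 0.260), which was called with no filter (0.32, FDR 0.00643) and when only the libraries compared were fitted (0.31, FDR 0.00657). A call in 1 genotype and not in the other does not show that the genotypes differed.

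The test of that difference was made for the change from d2 to d3 and from d3 to d4. For d2 to d3, 1 member was called (2.27% of all genes), Hmga2, whose rise was smaller in Nr6a1-/- cells by -0.89 on the log2 scale (SE 0.24, edgeR FDR 0.0396). That call was lost when counts were thinned (-0.92, FDR 0.0853) and in 9 of the 12 fits that left out 1 library (-0.97 to -0.74, edgeR FDR 0.0519 to 0.164), all but those without replicate 2 of Nr6a1-/- d2 or replicate 3 of either d3 group. For d3 to d4, 0 members were called by edgeR and by DESeq2 (5.72% of all genes by edgeR) and 1 had an unadjusted p below 0.05, Hmga2 at 0.53 (SE 0.19, FDR 0.0974), which was called when no filter on low counts was used (0.49, FDR 0.0375), without replicate 3 of wildtype d4 (0.67, FDR 0.0237) and without replicate 1 of Nr6a1-/- d4 (0.65, FDR 0.0118).

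Nr6a1-/- and wildtype cells were compared at each stage. At d2, before CHIR, 0 of 7 members were called by edgeR or by DESeq2 (4.07% of all genes by edgeR). An unadjusted edgeR p below 0.05 was found for 4, with Lin28a, Lin28b and Hmga2 higher and Igf2bp3 lower in Nr6a1-/- cells. The share of all genes with an unadjusted p below 0.05 was not computed, here or for the lists below. After 12 hours of CHIR 1 member was called (6.45% of all genes), followed by 2 members at d3 (10.8%), 2 at d4 (18.9%) and 1 with Gdf11 (7.92%). Their median log2 fold changes from d2 to d4G were 0.17, 0.28, -0.02, 0.07 and -0.03, beside medians of -0.01 to 0.02 over all genes.

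**Figure D4:**
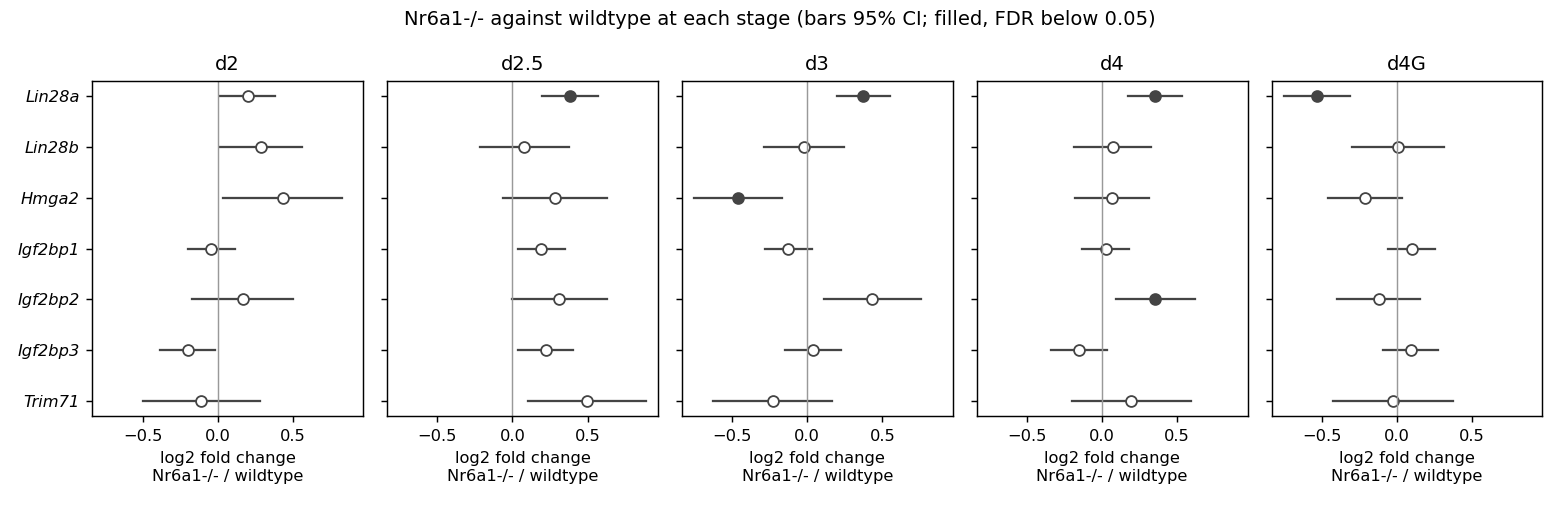
Log2 fold change of Nr6a1-/- over wildtype (x axis) for each gene at each of the 5 stages, with 95% confidence intervals as bars. Filled points have an FDR below 0.05. Lin28a lies at 0.38, 0.37 and 0.35 on the 3 stages from d2.5 to d4 without Gdf11, and at -0.53 with it.

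Lin28a was the member called at the most stages. Its mean was 251.9 CPM ± 13.7 (SD, n = 3) in Nr6a1-/- cells and 193.0 ± 19.5 (SD, n = 3) in wildtype at d2.5, a log2 fold change of 0.38 (SE 0.09, edgeR FDR 0.00592). The difference was 0.37 (SE 0.09, edgeR FDR 0.00377) a further 12 hours on, and 0.35 (SE 0.09, FDR 0.00394) in d4 cells. At d2 it was 0.20 (SE 0.09, edgeR FDR 0.252), with a 95% confidence interval of 0.02 to 0.38 that also holds the values at d3 and d4. The call at d2.5 was lost without replicate 2 of wildtype (0.31, FDR 0.0653), and that at d4 without replicate 3 of Nr6a1-/- (0.27, FDR 0.0571) or when only the d4 libraries were fitted (0.34, FDR 0.0849). It stood without replicate 2 of wildtype d4, at 0.40 (edgeR FDR 0.00446), and the call at d3 was kept in all alternatives. The summed level of 8 NMP markers was higher in the same Nr6a1-/- libraries, at 762.4 to 806.3 CPM against 599.1 to 632.8 CPM at d2.5 and at 1441 to 1641 CPM against 1051 to 1142 CPM at d3, and also at d4 (803.7 to 944.4 CPM against 637.7 to 702.3 CPM). Of these markers, T and Nkx1-2 had higher means in Nr6a1-/- cells at these stages. Sox2 did not, with 82.7 against 88.1 CPM at d2.5, 74.6 against 77.9 CPM at d3 and 38.9 against 46.9 CPM at d4. Cdx2 was higher at d2.5 and d3 but not at d4 (89.9 against 95.6 CPM). The summed level of 9 epiblast markers was also higher in Nr6a1-/- libraries, at 3514 to 3659 CPM against 2713 to 2747 CPM at d2. It was 864.7 to 913.4 CPM against 734.3 to 745.3 CPM at d2.5, and 253.0 to 271.8 CPM against 217.6 to 230.6 CPM at d3. At d4 the ranges overlapped, with 101.9 to 105.7 CPM against 97.7 to 734.5 CPM. The part of the NMP and epiblast markers in the Lin28a differences was not tested.

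At d4G the Lin28a difference had the opposite sign, with 64.7 CPM ± 1.48 (SD, n = 3) in Nr6a1-/- cells and 93.4 ± 6.23 (SD, n = 3) in wildtype. The log2 fold change was -0.53 (SE 0.11, edgeR FDR 7.83e-04), and this call was kept in all alternatives and in all 6 fits without 1 of these libraries. Lin28b did not follow it. The Lin28b differences at the 5 stages were 0.29, 0.08, -0.02, 0.07 and 0.01, with FDRs from 0.270 to 0.989 by edgeR, and the widest 95% confidence interval, at d4G, ran from -0.30 to 0.31.

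Among the let-7 targets, Hmga2 was lower in Nr6a1-/- cells at d3, by -0.46 on the log2 scale (SE 0.14, edgeR FDR 0.0340), with all 3 libraries below all 3 of wildtype. This call was lost with library totals alone (-0.44, FDR 0.0529), with thinned counts (-0.44, FDR 0.0706) and without replicate 1 or 2 of either group (-0.44 to -0.42, FDR 0.0943 to 0.116). The earlier Hmga2 differences were 0.43 (FDR 0.254) in d2 cells and 0.28 (FDR 0.382) in d2.5 cells, and the later ones 0.07 (FDR 0.760) without and -0.21 (FDR 0.351) with Gdf11. Igf2bp2, which stood at 0.43 at d3 (SE 0.16, edgeR FDR 0.0767, and 0.58 with FDR 0.0347 without replicate 1 of wildtype), was higher in Nr6a1-/- cells at d4, by 0.36 (SE 0.13, edgeR FDR 0.0493), and this call was lost in 6 of 7 alternatives. Without replicate 2 of wildtype the value stood at 0.26 (FDR 0.240), and without replicate 3 of wildtype, 2 of Nr6a1-/- or 3 of Nr6a1-/- at 0.30 to 0.35, with FDRs of 0.10 to 0.190. Igf2bp1 and Igf2bp3 were called at no stage, with differences of -0.13 to 0.19 and -0.20 to 0.22, but Igf2bp1 was called at d2.5 without replicate 3 of wildtype (0.28, FDR 0.0348).

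Trim71 had the largest difference of the members at d2.5, 0.50 (SE 0.19, 95% confidence interval 0.11 to 0.89), but the edgeR FDR was 0.129. It passed the threshold without the filter on low counts (0.53, FDR 1.80e-06) and without replicate 3 of wildtype (0.80, FDR 0.00960). Without the filter, the libraries were the same and the estimate was close to 0.50, and why the FDR fell was not tested. The wildtype library left out in the other fit was the highest of its group, at 621.8 CPM. At the other stages the Trim71 difference was -0.23 to 0.20.

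The response to Gdf11 was measured as d4G against d4 in each genotype. Pool may go with Gdf11 here, on the condition given above for the shared indexes, which were 3 in wildtype and 1 in Nr6a1-/- cells. Differences between genotypes in the response carry the same limit. In wildtype 4 of 7 members were called (28.8% of all genes), and in Nr6a1-/- cells 5 (18.0%). Lin28a and Lin28b fell and Hmga2 and Igf2bp3 rose in both. The median over the members was 0.04 in wildtype and -0.15 in Nr6a1-/- cells, beside 0.02 and -0.02 over all genes. The genotype comparisons at d4 and d4G use the same libraries and are not independent of this response.

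**Figure D5:**
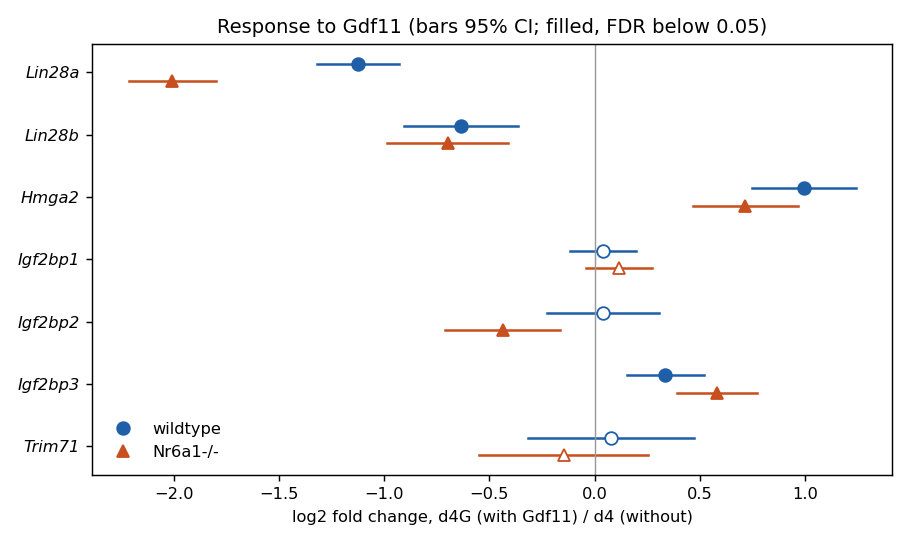
Log2 fold change of d4G over d4 (x axis) for each gene in wildtype (circles) and Nr6a1-/- cells (triangles), with 95% confidence intervals as bars and filled symbols for an FDR below 0.05. The Lin28a interval is -1.32 to -0.93 in wildtype and -2.21 to -1.80 in Nr6a1-/- cells, and those of Lin28b overlap.

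Lin28a fell from 203.2 to 93.4 CPM in wildtype, by 1.12 on the log2 scale (SE 0.10, edgeR FDR 1.82e-11, and -1.07 without replicate 2 of d4). In Nr6a1-/- cells it fell from 260.0 to 64.7 CPM, by 2.01 (SE 0.10, FDR 6.41e-18). The genotypes differed in this fall by -0.88 (SE 0.14, 95% confidence interval -1.17 to -0.60, edgeR FDR 8.98e-05), and Lin28a was the 1 member called for the genotype difference (2.66% of all genes). The value was -0.94 (FDR 7.21e-05) without replicate 2 of wildtype d4, and the call was kept in all alternatives and in all 12 fits that left out 1 library. Markers of NMPs and of paraxial mesoderm moved in the same comparison. The summed level of 8 NMP markers, none of them at 0, ranged from 637.7 to 702.3 CPM at d4 and 610.6 to 613.6 CPM at d4G in wildtype, and from 803.7 to 944.4 CPM and 430.5 to 473.9 CPM in Nr6a1-/- libraries. Within the wildtype sum, the mean of T rose from 83.1 to 158.3 CPM, while Sox2 fell from 46.9 to 19.6 CPM and Cdx2 from 95.6 to 44.7 CPM. In Nr6a1-/- cells T fell from 133.3 to 109.6 CPM, Sox2 from 38.9 to 6.52 CPM and Cdx2 from 89.9 to 22.9 CPM. Nkx1-2 went from 19.92 to 16.15 CPM in wildtype and from 106.97 to 18.95 CPM in Nr6a1-/- cells. The genes named here are only part of the sum. The summed level of 7 paraxial mesoderm markers ranged from 328.9 to 419.3 CPM at d4 and 169.0 to 190.9 CPM at d4G in wildtype. In Nr6a1-/- libraries this level ranged from 821.7 to 844.6 CPM and 289.5 to 318.0 CPM. The part of the NMP and paraxial mesoderm markers in the Lin28a difference was not tested.

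Lin28b fell by 0.64 on the log2 scale in wildtype (SE 0.13, edgeR FDR 4.09e-04) and by 0.70 in Nr6a1-/- cells (SE 0.14, FDR 3.52e-04), a difference of -0.06 with a 95% confidence interval of -0.46 to 0.33. Hmga2 rose by 1.00 (SE 0.12, edgeR FDR 6.21e-08) and 0.72 (SE 0.12, FDR 3.26e-05), a difference of -0.28 (FDR 0.465). Igf2bp3, with reads that may be those of Malsu1, went from 158.8 to 182.6 CPM at d4 to 191.7 to 235.6 CPM at d4G in wildtype, and from 147.9 to 162.0 CPM to 204.2 to 250.8 CPM in Nr6a1-/- libraries, with no overlap. It rose by 0.34 (SE 0.09, edgeR FDR 0.00447) and 0.58 (SE 0.09, FDR 1.10e-05), a difference of 0.25 (FDR 0.377). The 2 Lin28 genes thus fell and Hmga2 and Igf2bp3 rose in each genotype, and each of these 8 changes was called in every alternative. Without replicate 2 of d4, the wildtype responses were -0.69 for Lin28b, 0.90 for Hmga2 and 0.27 for Igf2bp3 (edgeR FDR 0.0453). For the 3 genes other than Lin28a, a genotype difference in the response was not called.

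Igf2bp2 was the remaining member called, and only in Nr6a1-/- cells, where it fell by 0.44 on the log2 scale (SE 0.13, edgeR FDR 0.0193), from 117.4, 124.0 and 134.1 CPM at d4 to 87.9, 85.3 and 103.0 CPM at d4G. Wildtype libraries were at 109.1, 86.7 and 99.2 CPM at d4 and 106.2, 88.3 and 107.6 CPM at d4G, a change of 0.04 (FDR 0.854). The call was lost with library totals alone (-0.37, FDR 0.0600) and without replicate 3 of d4 or 1 or 2 of d4G (-0.40 to -0.38, FDR 0.0731 to 0.0839), and the genotype difference, -0.48, was not called (SE 0.19, edgeR FDR 0.196). Igf2bp1 and Trim71 stood at 0.04 and 0.08 in wildtype and at 0.11 and -0.15 in Nr6a1-/- cells, none of them called.

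Other genes of the pathway were read from lists by role, some of which share genes. Of 20 tested genes of let-7 processing and decay, 5 were higher and 1 lower at d4G than at d4 in wildtype. In Nr6a1-/- cells 4 were higher and 1 lower. The median log2 fold change was 0.22 in wildtype and 0.16 in Nr6a1-/- cells. These calls stand beside 28.8% and 18.0% of all genes. Dicer1, the enzyme that cuts let-7 from its hairpin, rose from 102.0 to 137.2 CPM in wildtype (0.43, SE 0.09, edgeR FDR 5.55e-04) and from 94.5 to 219.0 CPM in Nr6a1-/- cells (1.21, SE 0.09, FDR 1.42e-12). It was the 1 gene of the list called for the genotype difference in this response, at 0.78 (SE 0.13, edgeR FDR 2.45e-04), and the 1 called between genotypes at d4G, at 0.67 (SE 0.09, FDR 1.50e-06). The shares over all genes for these comparisons were 2.66% and 7.92%. Lin28a, with which it shares these libraries, moved the other way in the same comparison. At d2 this list had 1 gene higher and 1 lower in Nr6a1-/- cells, and 2 genes were higher at d3 and again at d4, each time with Ago2, which holds mature miRNAs (4.07%, 10.8% and 18.9% of all genes for d2, d3 and d4). DESeq2 called 1 gene of this list in each of these 3 comparisons. Without replicate 2 of wildtype d4, 1 gene was higher at d4 in Nr6a1-/- cells. In wildtype, 4 were then higher and 0 lower at d4G than at d4. At d2.5 edgeR and DESeq2 called 0, and 3 had an unadjusted p below 0.05.

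The let-7 targets other than the members were 24 tested genes, Nr6a1 itself included. In Nr6a1-/- d4 cells 8 were higher and 5 lower than in wildtype, against 1 and 1 for d2, 5 and 2 for d3 and 3 and 4 for d4G, while for d2.5 the only call was Nras, which was higher. The shares over all genes were 18.9%, 4.07%, 10.8%, 7.92% and 6.45% in this order, and without replicate 2 of wildtype d4 the first counts were 6 and 4. The medians were -0.02, 0.14, 0.10, 0.17 and 0.06 from d2 to d4G. Igdcc3, a cell surface protein gene, was higher by 1.20 at d4 (SE 0.11, edgeR FDR 4.56e-11), and Mycn, a proliferation factor, by 0.90 (SE 0.12, FDR 2.56e-07), while Irs2, an adaptor of insulin and IGF receptors, was lower by -1.09 (SE 0.22, FDR 3.38e-04). At d4G against d4, 6 genes of this list were higher and 5 lower in wildtype (28.8% of all genes called). In Nr6a1-/- cells 3 were higher and 6 lower (18.0%). The responses of Igdcc3 (-1.12, SE 0.16, edgeR FDR 1.16e-05) and the cyclin gene Ccnd2 (-0.70, SE 0.17, FDR 0.0154) were lower in Nr6a1-/- cells, and that of Myc was higher (1.26, SE 0.32, FDR 0.0223). Without replicate 2 of wildtype d4, 7 of these genes were higher and 5 lower at d4G than at d4 in wildtype. The difference for Ccnd2 was then no longer called.

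The IGF axis, whose ligand mRNA gave the Igf2bp genes their name, was read over 12 tested genes. Nr6a1-/- cells had 2 of them lower at d2 and at d2.5, 4 lower at d3, 2 higher and 4 lower at d4 (1 and 4 without replicate 2 of wildtype), and 5 lower at d4G. The shares over all genes from d2 to d4G were 4.07%, 6.45%, 10.8%, 18.9% and 7.92%. Igf2 itself had no counts in wildtype libraries up to d3, and its wildtype means of 3.53 CPM at d4 and 10.1 CPM at d4G compared with 0.588 and 1.63 CPM in Nr6a1-/- cells (log2 fold change -2.56 at d4G, SE 0.49, edgeR FDR 5.89e-04). H19, the non-coding RNA transcribed beside it, was called lower in Nr6a1-/- cells at each of the 5 stages. Its wildtype and Nr6a1-/- means were 6.36 and 1.34 CPM at d2, 109.1 and 1.60 CPM at d4, and 611.9 and 6.76 CPM with Gdf11. With Gdf11, 7 genes of this list rose in wildtype (8 without replicate 2 of d4), while 6 rose and 1 fell in Nr6a1-/- cells (28.8% and 18.0% of all genes called), among them the IGF receptor gene Igf1r (0.82 and 0.55).

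Of 8 tested group 13 Hox genes and tail regulators, which also hold Nr6a1, 3 were higher in Nr6a1-/- cells at d2.5, 4 higher and 1 lower at d3, and the counts were 3 and 1 for d4 cells and 4 and 2 with Gdf11. The shares over all genes for these 4 comparisons were 6.45%, 10.8%, 18.9% and 7.92%. At d2 edgeR and DESeq2 called 0 of them and 2 had an unadjusted p below 0.05. Hoxb13, a terminal Hox gene, had means of 25.4, 21.5 and 143.9 CPM in Nr6a1-/- cells at d3, d4 and d4G, where wildtype means were at most 0.662 CPM. Of 17 listed let-7 precursor and host genes only 2, the hosts Huwe1 and Wdr82, had enough counts to be tested, and both were higher at d4 in Nr6a1-/- cells (0.42, FDR 0.00988, and 0.51, FDR 0.0113, by edgeR), where 18.9% of all genes were called. At d2, d2.5, d3 and d4G, 0 of the 2 were called by edgeR or by DESeq2, and 1 had an unadjusted p below 0.05 at d4G.

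The genes whose profile was most like each member were found by Pearson's r of log2 CPM over the 10 group means, among 9709 genes, and are given as a description. For Lin28a they were Gm26641 (r = 0.96), Gldc (0.96) and Mpp7 (0.95), and for Hmga2 Pxdn, Nrep and Mpzl1 (each 0.99). For Igf2bp2 they were Tcf3 (0.98), Idh2 (0.97) and Tmem87b (0.96), and for Igf2bp3 Sall4 (0.93), Cchcr1 (0.91) and Pikfyve (0.89). Lin28b was closest to Itm2a (0.93), Rpl31 (0.91) and Esd (0.90), Igf2bp1 to Prr14l (0.95), Fam3c (0.92) and Tspyl1 (0.92), and Trim71 to Mettl4 (0.98), Ing5 (0.96) and Lsm14b (0.95). Over all 30 libraries in place of group means, 1 of these 3 names was kept for each member but Igf2bp1, for which 0 were. Among the members themselves, r over the 10 group means was 0.62 for Lin28a with Lin28b and -0.62 for Lin28a with Hmga2, from groups that share their stages.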

How the data were processed

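The authors primed total RNA on poly(A) with an index, pooled the samples and amplified them by template switching, aligned reads with STAR to mm10 per the labels, and deposited raw counts per gene for 30 libraries. STAR's version, how reads were counted, whether strand was used and whether duplicate reads were collapsed are not given in the sources used here, so counting error may be understated. The deposited tables of the authors' own comparisons hold fold changes and p-values, which were not used, and counts, of which 0 differed from the count table in the rows compared.

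Counts were tested in edgeR 4.0.16 (R 4.3.3) by the quasi-likelihood test, in 1 model of 10 groups with TMM factors (0.909 to 1.05). A gene was kept where at least 2 libraries of 1 group exceeded both 10 counts and 2 CPM, which left 12149. SEs are the log2 fold change over the square root of F, and FDRs are Benjamini-Hochberg adjusted over all genes in each of 16 comparisons. The members and lists were chosen with earlier results of these data known. Genes are named because they are members, were called within a list or were the 3 most like a member in the profile. Scripts were tested on simulated data. Replicate libraries differed by a chi-square of 1.45 to 6.68 per gene, so none counted as a duplicate. Alternatives were relative log expression (RLE) factors, library totals alone, no filter, DESeq2 1.42.0, only the libraries compared, thinned counts, the replicate number as a block and leaving out each library. The list counts without replicate 2 of wildtype d4 were chosen after seeing the data. Transcript ends were compared with blastn 2.17.0.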

Additional observations from a re-analysis of the deposited data

Results flagged for a closer look

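A test of the difference between genotypes singled out 2 results. The response of Lin28a to Gdf11 differed by -0.88 on the log2 scale between Nr6a1-/- and wildtype cells (SE 0.14, edgeR FDR 8.98e-05), with the 3 Nr6a1-/- libraries at 217.1, 273.5 and 289.3 CPM without Gdf11 and 65.9, 65.1 and 63.0 CPM with it. The change of Hmga2 from d2 to d3 differed by -0.89 (SE 0.24, edgeR FDR 0.0396), with Nr6a1-/- libraries higher than wildtype at d2 and lower at d3. The d2 difference itself was not called (FDR 0.254), and the call for the change was lost with thinned counts (FDR 0.0853) and in 9 of 12 fits without 1 library. Groups of 3 libraries are too small for a test of single outlying values.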

How the results depend on the processing

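Of 112 comparisons of a member, 39 were called, and 26 of these were called under every alternative and without any 1 library, with no change of direction among the 39. At d4, where 2 members were called between genotypes, RLE factors, library totals alone, no filter, thinned counts and DESeq2 each called 1, and a fit to only the libraries compared called 0. At d3, library totals alone and thinned counts called 1 in place of 2. At d2.5, no filter called 2 in place of 1. From d2 to d2.5 in wildtype, RLE factors, no filter and DESeq2 called 2 in place of 1, and in Nr6a1-/- cells thinned counts called 2 in place of 4. For the genotype difference in the d2 to d3 change thinned counts called 0 in place of 1, and for d3 to d4 no filter called 1 in place of 0. Thinning lowers the counts of most libraries by construction, and otherwise the cause was not tested.

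Without 1 library, the members called ranged from 0 to 3 at d2.5, 1 to 2 at d3 and 0 to 2 at d4 between genotypes, from 1 to 3 (wildtype) and 2 to 4 (Nr6a1-/-) at the step to d2.5, from 3 to 5 at the step to d3 in Nr6a1-/- cells, and from 0 to 1 for both genotype differences over the stages. Values that were not called and turned sign were those of Lin28b at d4G with library totals alone (-0.034), no filter (-0.017) and only the libraries compared (-0.0034), Lin28b at d3 with no filter (0.0047), and Lin28a for the d3 to d4 difference with thinned counts (0.034).

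Leaving out 1 library also turned uncalled values, with these ranges. Between genotypes they were -0.090 to 0.021 for Igf2bp1 at d2, -0.15 to 0.082 for Lin28b and -0.022 to 0.084 for Igf2bp3 at d3, -0.071 to 0.16 for Lin28b, -0.047 to 0.20 for Hmga2 and -0.055 to 0.080 for Igf2bp1 at d4, and -0.065 to 0.075 for Lin28b and -0.22 to 0.16 for Trim71 at d4G. Over the stages they were -0.032 to 0.073 for Igf2bp1 from d2 to d2.5 and -0.15 to 0.065 for Igf2bp2 from d2.5 to d3 in Nr6a1-/- cells, and -0.34 to 0.19 for Trim71 from d2.5 to d3 and -0.044 to 0.18 for Lin28b from d3 to d4 in wildtype. For Gdf11 they were -0.046 to 0.14 for Igf2bp2 and -0.12 to 0.27 for Trim71 in wildtype, -0.33 to 0.019 for Trim71 in Nr6a1-/- cells and -0.17 to 0.080 for the Lin28b difference. For the genotype difference from d2 to d3 the range of Trim71 was -0.29 to 0.036, and from d3 to d4 the ranges were -0.10 to 0.072 for Lin28a, -0.042 to 0.21 for Lin28b and -0.23 to 0.069 for Igf2bp2.

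Same-numbered replicates of wildtype and Nr6a1-/- cells did not deviate together within a stage (r from -0.115 to 0.058 over 15 pairs, 0 of them over 0.1). Whether a number follows the same culture across the stages of a genotype was not tested. With the replicate number as a block, 2 members in place of 1 were called at d2.5, the second being Trim71 (0.52, edgeR FDR 0.0446), and Trim71 at d4G stood at 0.0090. Over all genes, a fit to only the libraries compared called 1398 in place of 2295 at d4, 212 in place of 323 for the Gdf11 difference and 440 in place of 695 for the d3 to d4 difference. Library totals from 1570714 counts limit the members with the fewest counts, Lin28b, Igf2bp2 and early Hmga2, most.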
